A study of Mus musculus with 1119 samples.

Results

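The cells described here were annotated by the depositors as matrix cells, or transit-amplifying cells, of Anagen II, an early stage of hair growth, and came from the basal hair bulb of mouse back skin. They lay on 3 plates named 914mat, 915mat and 920mat with 55, 76 and 68 annotated cells, of which 55, 75 and 66 were kept because 2000 or more genes reached 1 TPM (transcripts per 1000000, a length-normalised level). The series holds 1119 cells in all, 398 of them in the same expression table. The 3 cells left out had 55 to 1336 genes, and the lowest cell kept had 2942. The mice carried Lgr5-eGFPiresCreER, in which the Lgr5 locus drives green fluorescent protein and an inducible Cre, and the R26-tdTomato reporter. Their age was given as P25-P27, postnatal days 25 to 27, and their sex as mixed. The labels give no Cre induction and name no animal. Sorting used GFP, tdTomato, integrin α6, integrin b1, CD34 and Pcadherin, without the gate of each cell. Each single cell was amplified by Smart-seq2, a full-length cDNA method. Since no animal is named, all cells count as 1 biological sample: the plates show technical spread together with any unlabelled spread between animals, and no test was made. Values are read as the order and the size of differences among cells.

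Matrix cells lie at the base of the growing follicle around the dermal papilla, divide, and give rise to the inner root sheath and the hair shaft. Hedgehog ligand made in the epithelium acts through the receptor Ptch1 and the transducer Smo, and Gli1 and Ptch1 are themselves target genes of the pathway. WNT ligands act through Frizzled receptors and LEF/TCF transcription factors, and Lef1 marks hair matrix and precortex. Above the bulb, the outer root sheath and bulge carry Sox9 and Krt15, and the isthmus, infundibulum and sebaceous duct carry genes such as Krt79, Gata6 and Defb6.

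A gene is called seen in a cell at 1 TPM or more, and intervals on shares are exact 95% binomial intervals that cover counting error only. The median cell had 5528 genes seen, and the plate medians were 5211 on 914mat, 5383 on 915mat and 6173 on 920mat. Spike-in RNA took a median of 6.403% of TPM (6.03% on 914mat, 9.03% on 915mat and 4.82% on 920mat), ribosomal RNA 64.9% and mitochondrial transcripts 2.90%. Over cells, genes seen and the spike-in share were inversely related (mean within-plate Spearman rho = −0.717). Read depth is unknown because TPM keeps none. No 2 cells were identical. A fraction of cells expressing a gene and an amount of RNA captured per cell cannot be told apart at low levels.

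The 6 genes that mark the annotation were each seen in between 43.9% and 83.7% of the cells. Lgr6, an R-spondin receptor (chr1:134983301-135105276, minus strand, GRCm38), lay between 0 and 381.3 TPM with a median of 71.2 and was seen in 83.7% of cells (77.7 to 88.6). Its mean was 91.3 TPM on 914mat, 100.4 TPM on 915mat and 62.6 TPM on 920mat. Ank, a transporter that moves pyrophosphate out of the cell (chr15:27466677-27594909, plus strand), lay between 0 and 696 TPM with a median of 19.6 and was seen in 73.98% of cells (67.2 to 79.97). Its mean was 70.1 TPM on 914mat, 74.9 TPM on 915mat and 80.1 TPM on 920mat, but on the rescaled log2 scale, where low cells weigh more, the plate means were 4.95, 5.11 and 6.39. Gli1, the hedgehog target and transcription factor (chr10:127329882-127341974, minus strand), lay between 0 and 92.4 TPM with a median of 7.56 and was seen in 68.4% of cells (61.4 to 74.8). It was seen in 28 of 55 cells on 914mat, 61 of 75 on 915mat and 45 of 66 on 920mat.

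Apcdd1, a membrane inhibitor of WNT signalling, lay between 0 and 166.3 TPM with a median of 5.24 and was seen in 55.1% of cells (47.9 to 62.2). H2-Q7, a nonclassical class I histocompatibility gene (chr17:35439155-35443773, plus strand), lay between 0 and 338.9 TPM with a median of 1.25 and was seen in 52.04% of cells (44.8 to 59.2). Wnt7b, a WNT ligand (chr15:85535437-85582473, minus strand), lay between 0 and 172.3 TPM with a median of 0 and was seen in 86 cells (43.9%, 36.8 to 51.1). These 3 genes were thus split between cells with none and cells with a clear level. Where it was seen, the median was 24.2 TPM for Apcdd1, 49.9 TPM for H2-Q7 and 24.6 TPM for Wnt7b. At least 1 of the 6 markers was seen in every cell, 3 or more in 82.7% of cells (76.6 to 87.7) and all 6 in 20 cells. The share with 3 or more was 44 of 55 cells on 914mat, 53 of 75 on 915mat and 65 of 66 on 920mat, and it was 57.1% in all when a marker had to reach 10 TPM.

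**Figure D1:**
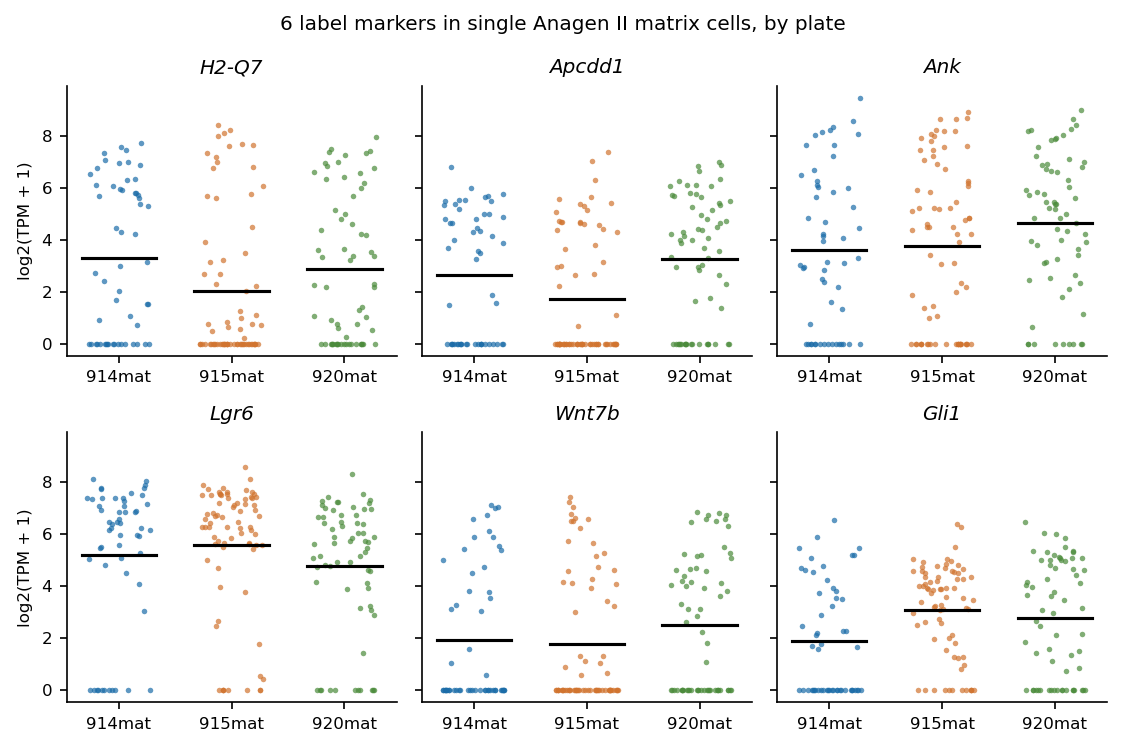
Level of the 6 label markers, as log2(TPM + 1), in each cell (points) by plate, with the plate mean as a bar. On each plate H2-Q7, Apcdd1 and Wnt7b have many cells at 0 beside cells at 4 to 8 on this scale.

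The 6 markers did not vary together as 1 group. Correlations here and below are Spearman coefficients computed on each plate over its 55, 75 or 66 cells and averaged over the 3 plates; the cells of a plate share its library preparation and differ in genes seen, so these values are descriptions. Over all 41400450 pairs of the 9100 genes seen in 10% or more of the cells of every plate, the median was 0.0184, with the 1st and 99th percentiles at −0.199 and 0.231. Ank and Wnt7b correlated at 0.551 (0.424 on 914mat, 0.636 on 915mat, 0.592 on 920mat) and H2-Q7 and Wnt7b at 0.540 (0.527, 0.421 and 0.672 in the same plate order). Ank and Lgr6 correlated at 0.436 (0.257, 0.396 and 0.654). Gli1 correlated with Lgr6 at 0.244 (0.410, 0.111 and 0.211), above the 99th percentile of all pairs. Its other coefficients were below 0: −0.0226 with Ank, −0.0621 with Wnt7b, −0.217 with Apcdd1 (−0.469, 0.0668 and −0.249) and −0.315 with H2-Q7 (−0.457, −0.154 and −0.335). Apcdd1 correlated with H2-Q7 at 0.421 (0.544, 0.348 and 0.370) and with Ank at 0.00926. Some of these values rest on a set of 58 cells described below: without them the coefficient of H2-Q7 was −0.0912 with Gli1 and 0.156 with Apcdd1, while that of Ank with Wnt7b was 0.556.

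The same order appeared in counts of cells. Gli1 was seen in 54.9% of cells with H2-Q7 (44.7 to 64.8) and in 78 of 94 cells without it (82.98%, 73.8 to 89.9). The difference had the same direction on each plate, with 12 of 35 against 16 of 20 on 914mat, 22 of 28 against 39 of 47 on 915mat, and 22 of 39 against 23 of 27 on 920mat. H2-Q7 was seen in 76.7% of cells with Wnt7b and in 32.7% of cells without it. Gli1 was seen in 75.0% of cells with Lgr6 and in 11 of 32 cells without it (34.4%). Cells with H2-Q7 had a median of 5319 genes seen and cells without it 5834.5; the part of this gap in the Gli1 counts was not tested.

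Lists of genes for other follicle compartments were set against the label. Markers of the outer root sheath and companion layer were present at 10 TPM or more for at least 3 genes in 95.9% of cells, and bulge markers in 88.3%. The first list holds the basal keratins Krt5, Krt14 and Krt17 as well as Krt15. The bulge list shares Krt15, Sox9 and Lhx2 with it. These shares therefore do not set outer root sheath or bulge cells apart from other basal keratinocytes. The basal keratins Krt5, Krt14 and Krt17 were seen in 95.4%, 86.2% and 87.2% of cells, and Krt15, a keratin of bulge and outer root sheath, in 91.3%. Sox9, the transcription factor of outer root sheath and bulge, was seen in 68.4% of cells (mean 38.1 TPM, median 11.8, highest 622). Matrix and hair shaft markers reached the same bar in 64.8% of cells, 28 of 55 on 914mat, 58 of 75 on 915mat and 41 of 66 on 920mat. Among these, Hoxc13, a hair regulator, was seen in 87 cells and Msx2, a homeobox factor of the matrix, in 47, while the hair shaft keratins Krt35 and Krt31 were seen in 10 and 4 cells. The median pairwise coefficient of the matrix and hair shaft list was 0.0322, beside 0.0179 for all genes. By itself, the share of 64.8% therefore does not set matrix cells apart. The inner root sheath keratins Krt25, Krt71, Krt27 and Krt28 were seen in 2, 6, 14 and 20 cells. At least 3 genes of the inner root sheath list reached 10 TPM in 35 cells (17.9%), 5 on 914mat, 16 on 915mat and 14 on 920mat. Of its 12 genes, 4 were seen in 10% or more of the cells, namely Krt28, Cux1, Trps1 and Gata3, and 2 in the majority. The named hair shaft and inner root sheath keratins were thus near 0 in most of the cells. Genes of the outer root sheath list, basal keratins among them, were present in most cells.

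A set of 58 cells (29.6%; 20 on 914mat, 14 on 915mat and 24 on 920mat) had at least 3 genes of an infundibulum, isthmus and sebaceous duct list at 10 TPM or more. None of the 6 label markers is in that list. H2-Q7 was seen in 54 of these 58 cells (93.1%) and in 34.8% of the others, and Apcdd1 in 91.4% and 39.9%. Gli1 was seen in 21 of the 58 cells (36.2%) and in 81.9% of the others, Lgr5 in 12.1% and 65.2%, and Lef1 in 6.90% and 57.2%. Wnt7b was seen in 63.8% and 35.5%, Sox9 in 91.4% and 58.7%, and Lgr6 in 72.4% and 88.4%. Median genes seen was 5336.5 in the 58 cells and 5651.5 in the others. These cells carry the annotation but also markers of another follicle region, and several correlations below are also given without them.

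**Figure D2:**
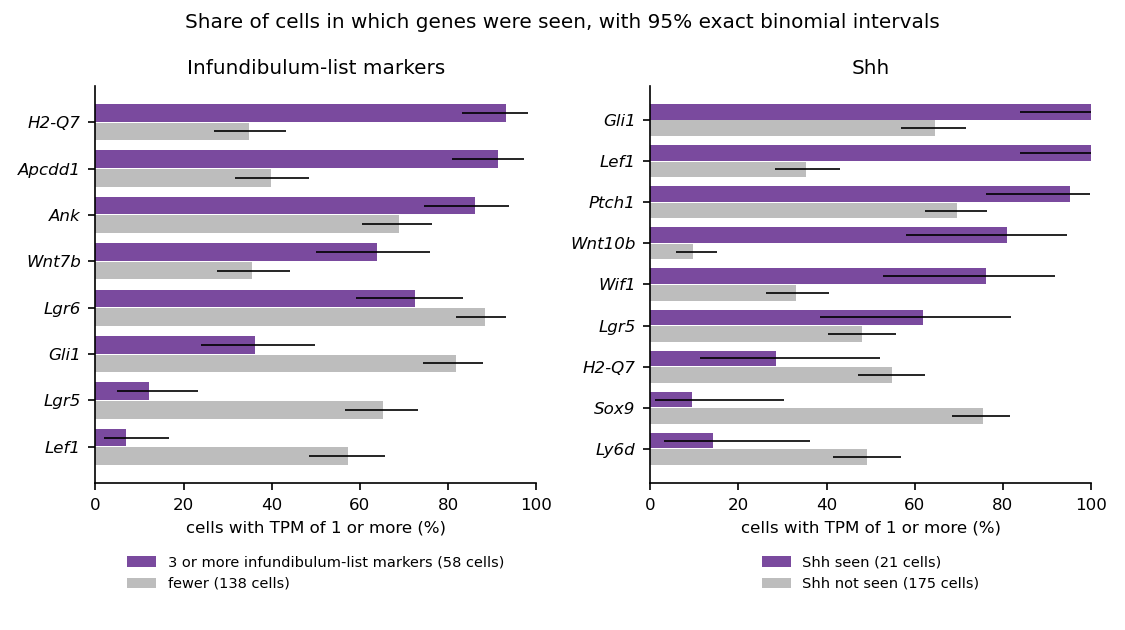
Share of cells in which each gene was seen, with exact 95% binomial intervals as error bars. On the left, 58 cells with 3 or more infundibulum-list markers are set above the cells with fewer, and on the right 21 cells with Shh above the cells without it; H2-Q7 is at 93.1% against 34.8% on the left, and Gli1 at 100% against 64.6% on the right.

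The closest partners of H2-Q7 were other genes of class I antigen presentation, in which a class I heavy chain, B2m and a peptide form the surface complex. H2-D1 and H2-K1, the classical heavy chains, correlated with H2-Q7 at 0.719 (0.789 on 914mat, 0.631 on 915mat, 0.737 on 920mat) and 0.679, and B2m, the light chain, at 0.701 (0.798, 0.550 and 0.755). H2-Q6 followed at 0.664, but it is a near-identical copy of H2-Q7, and reads may have been split between them. B2m lay between 0 and 3291 TPM with a median of 143.8, H2-K1 between 0 and 951 TPM with a median of 103.6, and H2-D1 between 0 and 703 TPM with a median of 71.045. Adjusted for genes seen, the coefficient of H2-Q7 with H2-D1 was 0.690. Without the 58 cells of the infundibulum list the coefficients with H2-Q7 were 0.512 for H2-D1, 0.468 for B2m, 0.401 for H2-K1 and 0.413 for H2-Q6. Of 17 genes in the list of class I presentation, 16 were seen in 10% or more of the cells. Their median pairwise coefficient was 0.277, beside 0.0179 for all genes, and it was 0.177 without the 58 cells. Nlrc5, the transactivator of class I genes, was seen in 58 cells. Its closest partners were not class I genes but Ly6d at 0.638 and Clca3a2 at 0.619, and it correlated with H2-K1 at 0.603, with H2-D1 at 0.541, with B2m at 0.535 and with H2-Q7 at 0.531. The peptide transporter Tap1 was seen in 60.2% of cells, its partner Tap2 in 36.2%, the chaperone Tapbp in 80.6%, and the immunoproteasome subunits Psmb8, Psmb9 and Psmb10 in 39.3%, 30.1% and 26.5%.

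Because these 4 genes varied together, their promoters are shown, from 250 bases before to 50 bases after the start, 5′ to 3′ on the strand of the gene, as given by RefSeq for build GRCm38.p6. They are at chr17:35438905-35439204 (plus strand) for H2-Q7, chr17:35262844-35263143 (plus strand) for H2-D1, chr17:34000284-34000583 (minus strand, the first of 2 entries) for H2-K1, and chr2:122147437-122147736 (plus strand) for B2m. Capitals mark any match to a κB motif, GGGATTCCC or its other strand GGGAATCCC, to a part of the interferon-response motif, TTTCACTT or its other strand AAGTGAAA, and to a CCAAT box, whose other strand reads ATTGG. Both strands were searched, and the motifs were picked after these promoters were seen.
H2-Q7: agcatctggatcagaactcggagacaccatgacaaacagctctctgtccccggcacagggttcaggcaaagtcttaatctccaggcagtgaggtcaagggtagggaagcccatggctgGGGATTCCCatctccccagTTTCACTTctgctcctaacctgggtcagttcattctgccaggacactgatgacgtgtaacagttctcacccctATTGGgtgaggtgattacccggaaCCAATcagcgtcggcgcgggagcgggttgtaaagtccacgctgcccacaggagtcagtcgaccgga
H2-D1: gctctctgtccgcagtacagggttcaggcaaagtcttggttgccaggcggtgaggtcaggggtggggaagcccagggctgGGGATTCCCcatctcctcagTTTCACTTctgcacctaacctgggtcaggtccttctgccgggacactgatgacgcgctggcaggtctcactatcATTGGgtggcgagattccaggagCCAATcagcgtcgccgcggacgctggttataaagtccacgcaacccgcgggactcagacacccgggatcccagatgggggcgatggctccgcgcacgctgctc
H2-K1: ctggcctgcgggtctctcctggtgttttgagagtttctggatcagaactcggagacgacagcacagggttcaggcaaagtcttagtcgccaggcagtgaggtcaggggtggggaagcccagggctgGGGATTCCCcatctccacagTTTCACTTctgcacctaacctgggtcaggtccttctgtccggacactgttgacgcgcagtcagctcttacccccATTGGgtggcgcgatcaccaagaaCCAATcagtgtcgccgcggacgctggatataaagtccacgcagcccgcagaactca
B2m: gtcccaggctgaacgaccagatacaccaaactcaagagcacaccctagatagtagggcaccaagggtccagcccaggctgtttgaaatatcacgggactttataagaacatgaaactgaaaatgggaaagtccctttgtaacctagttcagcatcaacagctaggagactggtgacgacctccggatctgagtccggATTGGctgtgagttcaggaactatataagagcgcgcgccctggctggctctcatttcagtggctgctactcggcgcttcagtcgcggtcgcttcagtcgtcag
The 3 heavy chain promoters each held the κB motif, at −132 in H2-Q7, −170 in H2-D1 and −124 in H2-K1, followed by TTTCACTT at −113, −150 and −104, then ATTGG at −40, −76 and −30 and CCAAT at −16, −53 and −6, counted from the start. Of the motifs as spelled here, the B2m window held only ATTGG, at −53. Looser forms of the motifs were not searched, so their absence from B2m is not shown. Over 32851 promoters of the same length, the κB motif was in 0.353%, TTTCACTT in 1.60% and CCAAT in 37.4%. Of 15 genes of the list with an entry, 4, 8 and 12 held them. The motifs were not found to overlap each other in these windows, and a match is a description of letters and not of binding.

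Around Ank, the 4 closest genes were Fst, the activin antagonist follistatin, at 0.711 (0.692 on 914mat, 0.725 on 915mat, 0.717 on 920mat), Sox9 at 0.701, Nfatc1, a transcription factor of quiescent bulge cells, at 0.695, and Sema3e, a semaphorin, at 0.691. They were seen in 47.96%, 68.4%, 62.8% and 41.3% of cells. With genes seen held constant, Ank correlated with Fst at 0.597 and with Sox9 at 0.565, and without the 58 cells at 0.648 and 0.615. Wnt7b had as neighbours Dmkn, an epidermal secreted protein, at 0.656, Sdc4, a syndecan, at 0.650, Tns4, a tensin, at 0.639, and Phyhip at 0.629. These were seen in 61.7%, 96.9%, 76.5% and 65.8% of cells.

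Around Gli1 stood Cspg4, a membrane proteoglycan, at 0.553 (0.689 on 914mat, 0.297 on 915mat, 0.674 on 920mat), Dmd, dystrophin, at 0.496, and the amino acid transporter Slc7a2 at 0.486. The value of Cspg4 on 915mat was the lowest of the 3 plates. Without the 58 cells, the coefficients with Gli1 were 0.522 for Cspg4, 0.383 for Dmd and 0.336 for Slc7a2. Lgr6 went with Tgfb3, a TGF-β ligand, at 0.575 (0.589, 0.357 and 0.780), Moxd1 at 0.572, the growth factor Ptn at 0.555 and the BMP antagonist Grem1 at 0.548. Apcdd1 went with Clca3a2 at 0.515, the epithelial surface protein Ly6d at 0.478, Zbtb7c at 0.451 and Rasgrp1, a Ras exchange factor, at 0.442. Without the 58 cells the coefficient of Apcdd1 was 0.179 with Ly6d and 0.209 with Rasgrp1, and those with Clca3a2 and Zbtb7c were not computed there. When 20 neighbours of each marker were taken from 2 plates and measured on the remaining one, their median coefficient lay between 0.263 (Gli1 on 915mat) and 0.627 (Ank on 920mat). At least 18 of the 20 were positive in each case, and the median over all genes lay between −0.097 and 0.040.

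**Figure D3:**
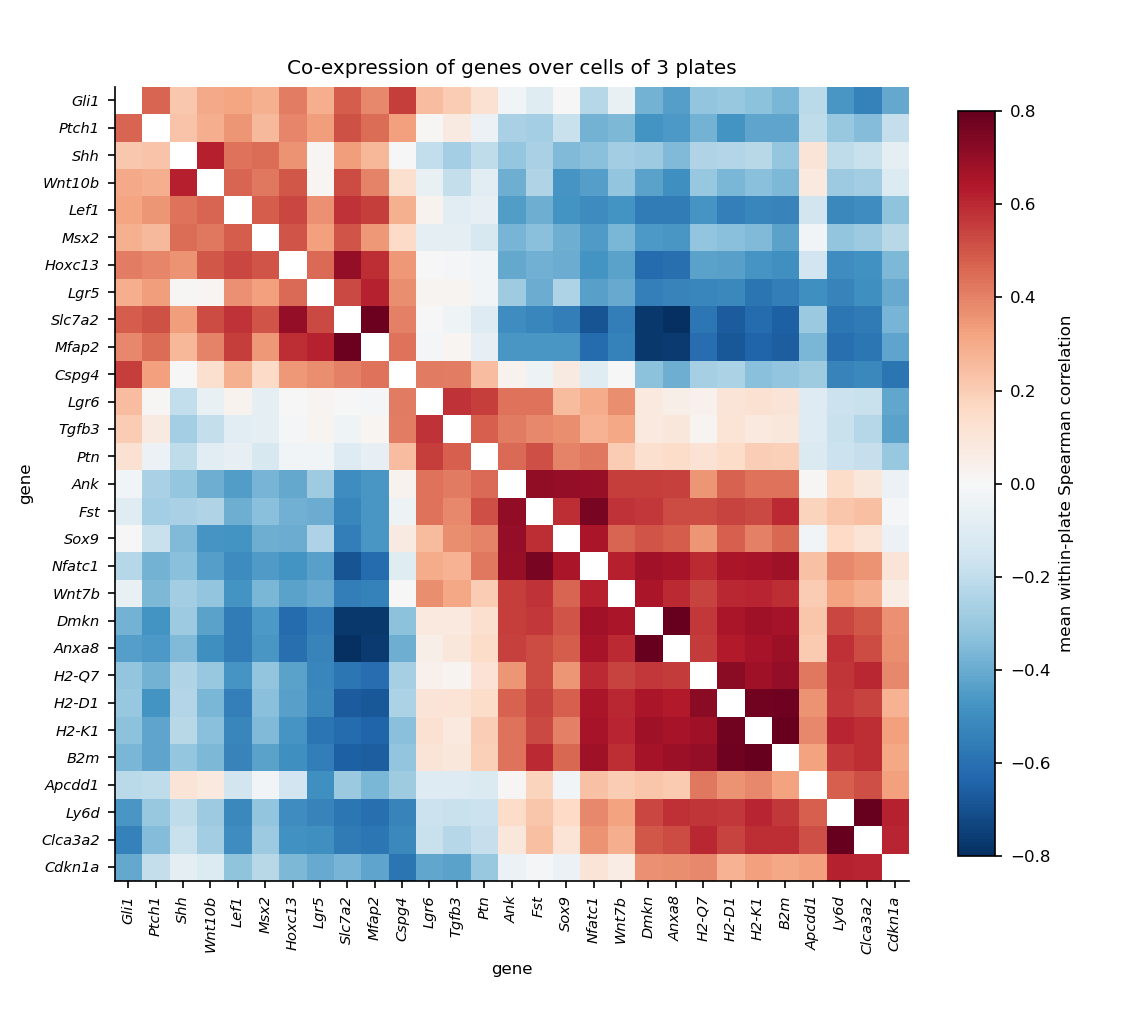
Mean within-plate Spearman correlation of genes over cells of 3 plates, red above 0 and blue below. One block runs from Gli1 to Mfap2 and another from Ank to B2m, Lgr6 with Tgfb3 and Ptn lies between them, and the pairs of Anxa8 and Dmkn with Slc7a2 and Mfap2 are the darkest blue.

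The first principal component, computed on the 1500 genes most variable for their level after centring each plate, held 9.37% of variance, and components 2 and 3 held 4.77% and 2.22%. Component 1 ran with genes seen (rho 0.617 on 914mat, 0.752 on 915mat and 0.743 on 920mat), and its gene weights computed on single plates correlated between plates at 0.761 to 0.804, so a like axis was found on each. Genes that helped to build the component cannot test it, so the values below describe it. At one end stood Slc7a2, Mfap2, Mt2, Atp6v1b1, Slc38a4 and Htra1, and at the other Dmkn, Anxa8, Ly6d, Sbsn and Krt80. Lef1, Hoxc13, Foxi3 and Lgr5 correlated with it at 0.648, 0.661, 0.618 and 0.535, and Gli1 at 0.372. Sox9, Ank, H2-Q7 and Wnt7b correlated with it at −0.705, −0.679, −0.642 and −0.623. Of the 20 cells at the Slc7a2 end, Lef1 was seen in 20, Sox9 in 3, H2-Q7 in 7 and Wnt7b in 1, and of the 20 at the Dmkn end in 1, 20, 20 and 17. Median genes seen was 6792.5 at the Slc7a2 end and 4594.5 at the Dmkn end, and the part of genes seen in these counts was not tested.

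Component 2 separated Cdkn1a, the cell cycle inhibitor p21, at −0.691 and Ly6d at −0.541 from Col17a1, a hemidesmosomal collagen, at 0.675, Lgr6 at 0.591 and Ank at 0.418. Its positive end carried Postn, Crip1, Ctgf, Sparc, Vwa2 and Fbln1, among them the extracellular matrix genes Postn, Sparc and Fbln1, and its negative end Cdkn1a, Ly6d, Clca3a2, Fam25c and Lypd3. It ran against genes seen (rho −0.308, −0.659 and −0.523), and its weights correlated between plates at 0.396 to 0.645. Component 3 was little shared by the plates: its weights correlated between them at 0.249, 0.220 and 0.00304. Without the 58 cells, components 1 and 2 correlated in size with the full ones at 0.977 and 0.660.

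**Figure D4:**
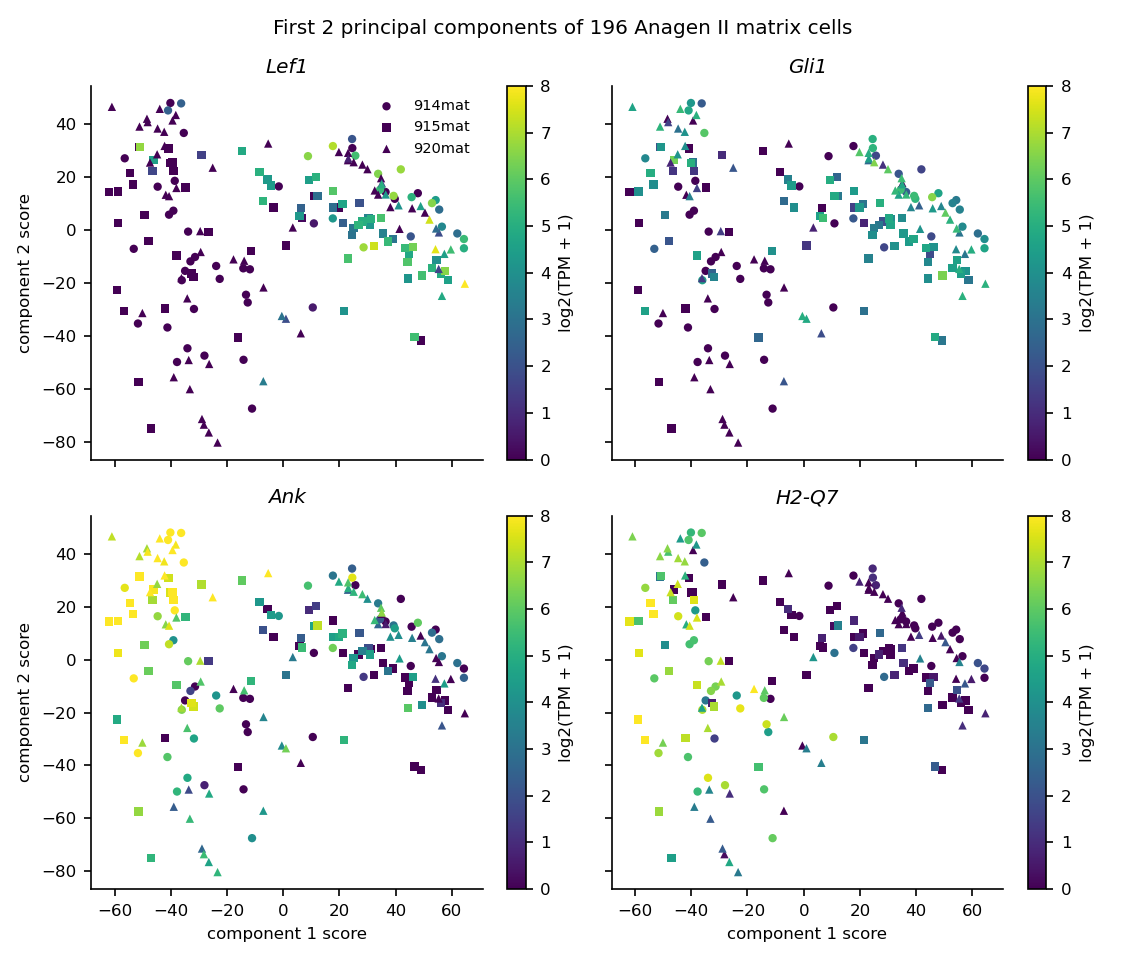
Scores of the cells on the first 2 principal components in 4 panels, coloured by log2(TPM + 1) of Lef1, Gli1, Ank and H2-Q7, with the plate as marker shape. Lef1 is highest on the right, Ank and H2-Q7 on the left, and Gli1 lies on both sides.

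Shh, the hedgehog ligand of hair follicle epithelium, was seen in 21 cells (2 on 914mat, 10 on 915mat and 9 on 920mat), between 1.00 and 82.5 TPM with a median of 6.49 among these, and 8 of them reached 10 TPM. In the 21 cells with Shh, Gli1 was seen in 21 and Lef1 in 21, against 64.6% and 35.4% of cells without it. The receptor Ptch1 was seen in 95.2% of cells with Shh and in 69.7% of those without. Wnt10b, a WNT ligand, was seen in 17 cells with Shh and 17 without, shares of 80.95% and 9.71%. Msx2 was seen in 80.95% of cells with Shh and 17.1% without, and the BMP ligand Bmp2 in 80.95% and 29.7%. Sox9 was seen in 9.52% of cells with Shh and in 75.4% without, Ly6d in 14.3% and 49.1%, and H2-Q7 in 28.6% and 54.9%. Median genes seen was 6839 in cells with Shh and 5364 in cells without, and over 9902 genes the median difference in share was 11.4 percentage points. Scube3, Ascl4 and Robo1, picked after their values were seen as large differences on 915mat and 920mat, were seen in 20, 17 and 20 of the 21 cells, against 10.9%, 7.43% and 26.3% of the cells without Shh.

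The hedgehog receivers were broader. Ptch1 was seen in 72.4% of cells (mean 31.2 TPM), Smo, the signal transducer, in 83.2%, and the transcription factors Gli2 and Gli3 in 69.9% and 58.7%. The co-receptors Boc and Gas1 were seen in 79.6% and 73.98% of cells and Cdon in 22.4%, the inhibitor Sufu in 53.1%, and the decoy receptor Hhip in 13.8%. Gli1 correlated with Ptch1 at 0.467 and with Gli2 at 0.452, but with Gli3 at 0.242. Over all 12 pathway genes the median pairwise coefficient was 0.138 (0.184 on 914mat, 0.0520 on 915mat, 0.177 on 920mat) and 0.0660 without the 58 cells.

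Of 15 WNT ligands, 8 were seen in 10% or more of the cells: Wnt4 in 51.5%, Wnt7b in 86 cells, Wnt10a in 72, Wnt10b in 34, Wnt6 in 31, Wnt7a in 26, Wnt5a in 25 and Wnt3 in 24. Their median pairwise coefficient was 0.0783, but it was 0.0415 without 914mat, 0.149 without 915mat and 0.171 over ligands seen in 25% of cells. Gli1 was seen in 34 of 34 cells with Wnt10b and 61.7% of those without, and Lef1 in 91.2% and 32.1%. Median genes seen was 6525.5 in cells with Wnt10b and 5319.5 in those without, and its part in these shares was not tested. Wnt7b, which stood at the other end of component 1 from Lef1, correlated with Wnt10a at 0.332. Of the receptors, Fzd7 was seen in 85.7% of cells, the R-spondin receptor Lgr4 in 80.1%, and Fzd1 in 76.5%. Lgr5, whose locus drives the GFP of these mice, was seen in 97 cells (19 on 914mat, 49 on 915mat, 29 on 920mat) with a median of 0.860 TPM and a highest value of 255.7 TPM, and it correlated with Lgr6 at 0.0232. Of WNT response genes, Axin2, a feedback inhibitor and target, was seen in 69.4% of cells (26.4 TPM), Tcf7 in 90 cells, Lef1 in 83 and the secreted inhibitors Wif1 and Notum in 74 and 36. Lef1 was seen in 35 of 36 cells with Notum, against a share with a 95% interval of 23.02% to 37.7% without. Cells with Notum had a median of 6431.5 genes seen and those without it 5356. Lef1 correlated with Hoxc13 at 0.534, with Msx2 at 0.487, with Axin2 at 0.289 and with Sox9 at −0.480. Sox9 was seen in 39 of 83 cells with Lef1 (46.99%) and in 84.1% of those without, with 6141 and 5232 genes seen as medians.

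Cycling was tracked with 20 genes of S phase and 20 of G2/M. At least 5 S-phase genes at 10 TPM were present in 52 cells (12, 11 and 29 on the 3 plates). Gli1 was seen in 90.4% of the S-phase cells and in 60.4% of the others, Shh in 13 of 52 cells and in 5.56%, and Ly6d in 30.8% and 50.7%. Median genes seen was 6424 in the S-phase cells and 5221.5 in the others. The S-phase list had a median pairwise coefficient of 0.406, led by Mcm5, Uhrf1, Mcm3 and Chaf1b, and it was 0.459 without the 58 cells. Only 15 cells had 3 or more G2/M genes (0 on 914mat, 5 on 915mat, 10 on 920mat), 12 of them also S-phase cells. Gli1 was seen in all 15 against 65.7% of the others, with medians of 7271 and 5403 genes seen. The others include all 55 cells of 914mat, where Gli1 was seen in 28, so this contrast is mixed with plate. The parts of plate and of genes seen in it were not tested. Mki67, the proliferation antigen, was seen in 25 cells and in none on 914mat. Cdkn1a was seen in 88 cells (mean 60.3 TPM, highest 1028). It correlated with Ly6d at 0.618 and Notch3 at 0.650. With Mcm2, a replication helicase subunit, its coefficient turned sign between plates (−0.337, 0.159 and −0.195), and with Pcna, the replication clamp, the mean was 0.0596. Ly6d was seen in 69.3% of cells with Cdkn1a and 25.9% without, and Gli1 in 53.4% and 80.6%. On 915mat the Gli1 counts were nearer, at 21 of 27 and 40 of 48. Cdkn1a itself was seen in 42.3% of the S-phase cells and in 45.8% of the others. Of the 58 infundibulum-list cells, 46 had Cdkn1a (79.3%), against 30.4% of the others. The part of those 58 cells in the Ly6d and Gli1 shares was not tested.

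For the mean over plates, the infundibulum, isthmus and sebaceous duct list had the highest median pairwise coefficient of the lists measured. It was 0.472 (0.552 on 914mat, 0.476 on 915mat, 0.393 on 920mat). The rank did not hold on each plate. On 920mat the lists of interfollicular epidermis (0.561), S phase (0.508), G2/M (0.474) and basal adhesion (0.456) were higher. On 915mat the G2/M list was higher (0.490). The infundibulum list median of 0.472 was 0.0209 without the 58 cells that carry its markers. Those cells were chosen by the genes of this same list, so a fall was built into the choice and tests nothing. Defb6, a defensin, was seen in 32 cells and reached 17006 TPM in 1 cell, the transcription factors Gata6 and Sox7 in 43 and 33, Defb1 in 31, and Krt79, a keratin of the infundibulum, in 36 (highest 5600 TPM). Defb6 was seen in 66.7% of cells with Krt79 and 5.00% without, and H2-Q7 in 83.3% of cells with Krt79, against a share with a 95% interval of 37.1% to 53.1% without. Ly6d was seen in 89 cells (mean 280 TPM, highest 2420), in 96.6% of the infundibulum-list cells and in 23.9% of the others. It was seen in 19 of 97 cells with Lgr5 (19.6%) and in 70 of 99 without (70.7%), and their correlation was −0.533. The list score of class I presentation went with that of the infundibulum list at 0.637, and the hedgehog score against it at −0.564.

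Other lists were coupled to differing extents. The differentiated interfollicular epidermis list had a median of 0.280 but was uneven over plates (0.178, 0.122 and 0.561) and was 0.152 without the 58 cells. Krt10 was seen in 52.04% of cells, Krt1 in 11.2%, Lor, a cornified envelope protein, in 5.61% and Flg2 in 1.53%. Basal adhesion genes had a median of 0.331, with Krt5 and Col17a1 at 0.763, cholesterol synthesis 0.272, FGF response 0.236 and immediate early genes 0.212. In the FGF list the phosphatase Dusp6 correlated with the ETS factors Etv4 and Etv5 at 0.477 and 0.468, and the list score went with that of the interfollicular list at −0.579. The bulge list had 0.150, and 0.217 without the 58 cells, led by Sox9, Nfatc1, Fst and Grem1, and the outer root sheath list 0.160. Lower medians were those of BMP response (0.0867), interferon response (0.0712), p53 response (0.0573), glycolysis (0.0446), matrix and hair shaft (0.0322) and Notch (−0.00789), beside 0.0179 for all genes. The matrix and hair shaft median was 0.102 without the 58 cells and 0.0788 over genes seen in 25% of cells. The BMP response median was 0.138 over genes seen in 25% of cells and 0.0536 without 920mat. In the Notch list the receptor Notch1 was seen in 92.9% of cells and the target Hes1 in 49.5%. In all, 10 of the lists reached 0.2, among them the label markers at 0.202, which had 0.0772 without the 58 cells.

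**Figure D5:**
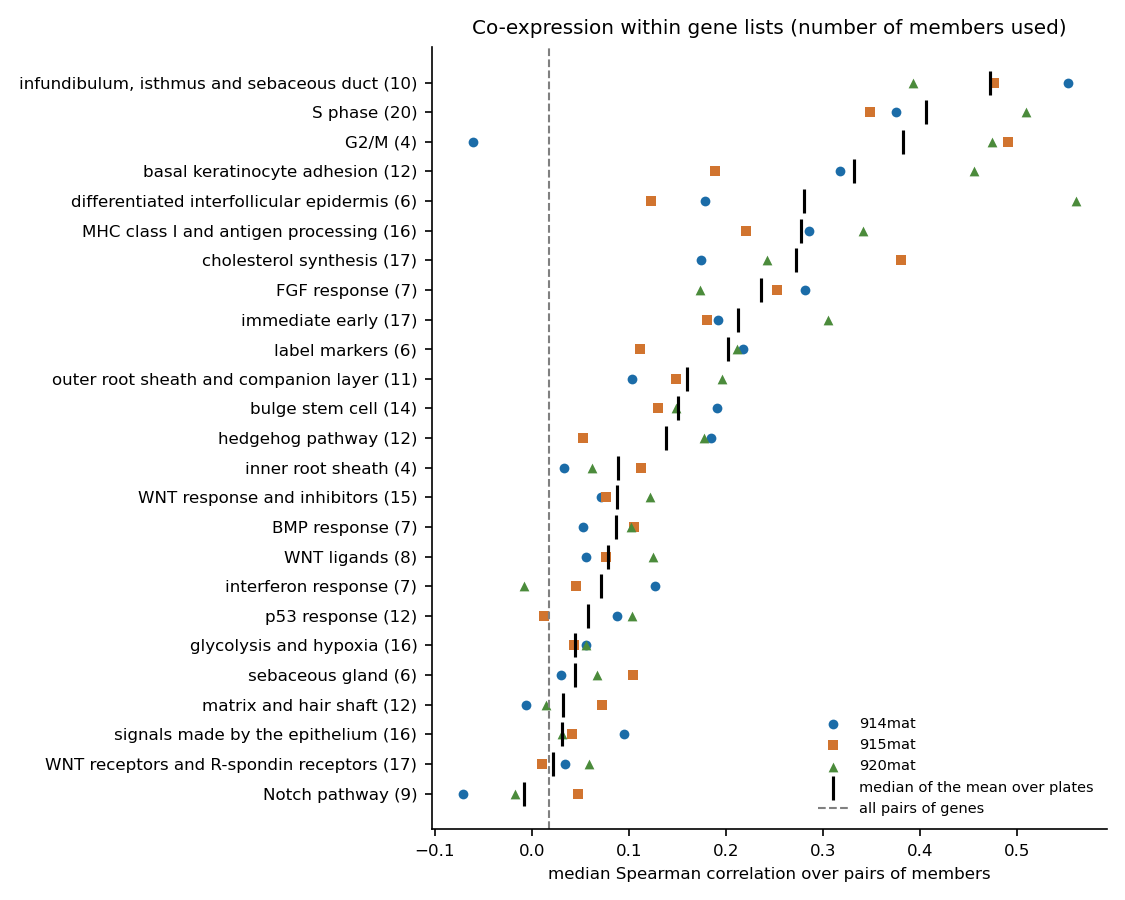
Median Spearman correlation over pairs of members of 25 gene lists, for each plate (points) and for the mean over plates (bars), with the number of members used in brackets and the median of all pairs of genes as a dashed line. For the mean over plates the infundibulum list lies highest at 0.472, and the matrix and hair shaft list at 0.0322 lies near the line.

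The genes most variable for their level were Anxa8, an annexin (SD above that of its level 2.82 on the log2 scale), Dmkn (2.55), Mt2, a metallothionein (2.54), Ly6d (2.51), Krt17 (2.24), Krt14 (2.18), the chemokine Ccl27a (2.10) and Crip1 (2.01), with a median of 0.00289 and a 99th percentile of 0.912 over 9100 genes. Anxa8 was seen in 73.98% of cells with a highest value of 1533 TPM. The 20 most variable genes also held Lgals3, Sbsn, S100a6, Postn, Capns2, Glul, Krt15, Anxa1, Cd200, Ifitm3, Aqp3 and Tns4. Among the strongest pairs, Anxa8 correlated with Lgals3 at 0.827, with Lgals7 at 0.825 and with Dmkn at 0.824, and Clca3a2 with Ly6d at 0.817. B2m and H2-K1 reached 0.808, and the metallothioneins Mt1 and Mt2 0.803. The most opposed pair was Anxa8 with Slc7a2, at −0.798. Keratins were not 1 block: Krt5 correlated with Krt14 at 0.162, and Krt14 with Krt17 at −0.321.

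Plates differed for part of the genes. A gene is counted where the mean log2 level of a plate differed by 1 or more from the mean of the other 2 plates, out of 9100. On 914mat 0.989% of genes were higher and 7.78% lower, on 915mat 2.23% higher and 3.11% lower, and on 920mat 11.2% higher and 1.08% lower. The median over all genes was itself shifted, by −0.26, −0.11 and 0.37, in the order of genes seen, so a gene is read against that shift. These counts depend on the pseudocount: with 10 in place of 1 the share of calls over all 3 plates was 0.645% and not 8.81%. On 920mat Krt15 was lower by a log2 difference of −3.15 (means 8.24 there, 11.42 on 914mat and 11.37 on 915mat), and Adgrg1, an adhesion receptor, higher by 3.60. On 915mat Ly6d was lower by −2.66 (3.05, against 6.01 on 914mat and 5.40 on 920mat), and Crip1 higher by 2.60. On 914mat Glul, glutamine synthetase, was higher by 2.68 and Shisa2 lower by −2.89. Of 17 cholesterol synthesis genes 9 were higher on 915mat (median 1.05), and of 18 S-phase genes 9 were higher on 920mat (median 0.95). Plate, animal and day of preparation cannot be told apart here.

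Cells with markers from outside the epithelium were few, while those with markers of other epithelial lists were not. At 10 TPM, 57 cells (29.1%) had 3 or more sebaceous gland markers and 54 (27.6%) had 3 or more of differentiated interfollicular epidermis. Of these 54 cells, 36 (66.7%) were also infundibulum-list cells, against 15.5% of the cells with fewer interfollicular markers. Most of the 54 cells are thus not a group apart from the infundibulum-list cells. The sebaceous gland list had a median pairwise coefficient of 0.0440, beside 0.0179 for all genes. Its members thus varied little together, and its count does not show a set of sebaceous cells. At least 3 markers of fibroblast and dermal papilla, immune, melanocyte, endothelial or Merkel lists at 10 TPM were present in 7 cells (3.57%; 3, 0 and 4 on the 3 plates), of which 5 had fibroblast and dermal papilla markers, 2 immune, 1 endothelial and 1 melanocyte markers, with some cells in more than 1 list; no cell had 3 Merkel markers. The median summed level was 0 TPM for the lists other than melanocyte, where it was 2.67 TPM. Against a sex label of mixed, a Y-linked gene was seen in 53 of 55 cells on 914mat, 67 of 75 on 915mat and 64 of 66 on 920mat. Xist was seen in 2 cells of 920mat that also had a Y-linked gene, and in 6 of the other cells of the same table.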

How the data were processed

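Single-cell transcript levels were deposited by the authors as TPM per gene and cell; per the submitters' processing notes, reads were processed with Bowtie2 2.2.9 and RSEM 1.2.30 on mm10. Gene names and positions came from GENCODE release M21, with 46005 of 46517 identifiers matched, and promoters from RefSeq. Levels and shares use TPM as deposited. For variation, correlation, components and plate differences, the 92 spike-in, 360 ribosomal RNA and 37 mitochondrial rows were left out and each cell was rescaled to 1000000, then taken as log2(value + 1). Spearman correlations were computed within plates and averaged. Doublets were not called. Computation used Python 3.11.15, numpy 2.4.6, pandas 2.3.3 and scipy 1.17.1, and the steps were tested on simulated data. Cells were chosen by the depositors' annotation. The cells and gene lists were chosen with earlier results of these data known. Named genes are the 6 label markers, the 20 most variable, the 4 closest to each marker, up to 4 leading members of each list, the 6 of largest weight at each end of components 1 to 3, the 5 largest plate differences in each direction and the 10 strongest pairs, leaving out ribosomal protein genes, pseudogenes and predicted models. Other genes named are members of the lists or were chosen after their values were seen. Alternatives varied the TPM bar, pseudocount, filter, coefficient, rescaling and cells used. Some genes that the rule names are not reported here.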

Additional observations from a re-analysis of the deposited data

How the results depend on the processing

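Depth is unknown, so values at low TPM are the least certain. Of the recomputed values of single genes, pairs and lists, 828 were counted as unchanged, 83 as moved and 5 as turned in direction. A correlation counted as unchanged where it shifted by no more than its SD over the 3 plates, whatever its sign. A plate difference counted so where it kept its sign and stayed at 1 or more in size. This bar can be wide. Without the 58 infundibulum-list cells, the interfollicular median of 0.152 (reported 0.280) and the Notch median of 0.0124 (reported −0.00789) counted as unchanged. Apcdd1 with Ank, reported at 0.00926, was −0.0137 with Pearson correlation, −0.0333 with Pearson correlation and pseudocount 0.1, and −0.165 without the 58 infundibulum-list cells. Apcdd1 with Gli1 was 0.0640 without those cells, and the sebaceous gland list median was −0.00112 given genes seen. The share of cells with 3 or more label markers was 68.9% at 5 TPM and 57.1% at 10 TPM, and 74.6% to 90.1% without each plate in turn. Component 1 held 10.2% of variance on TPM as deposited. The number of lists at 0.2 or more was 7 to 10, and 8 to 10 without each plate in turn. Cells with markers outside the epithelium numbered 12 at 1 TPM, 4 at 100 TPM, 13 with 2 or more markers and 4 with 4 or more. Percentages of genes past a plate difference of 1, with pseudocount 0.1, with pseudocount 10 and on TPM as deposited, were 3.09, 0.220 and 0.407 for 914mat higher, 22.2, 0.330 and 1.68 for 914mat lower, 5.97, 0.297 and 1.15 for 915mat higher, 12.1, 0.198 and 0.527 for 915mat lower, 31.1, 0.593 and 1.69 for 920mat higher, 2.40, 0.297 and 0.593 for 920mat lower, and 25.6, 0.645 and 2.02 over the 3 plates. The cause was not tested. The sets without the 58 cells and without cells of other types were chosen after seeing the data. No paired analysis was possible because plates are not paired groups.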

Other observations

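Some of the strongest pairs were of genes that share sequence or position. Tmem254a and Tmem254b, copies of one another, correlated at 1.00, so their reads cannot be told apart. Col4a3 and Col4a4, collagen chains encoded side by side, correlated at 0.769. Apoe, a lipid carrier, had the highest mean level of the genes described, 2236 TPM, and was seen in every cell.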
